A study of Mus musculus with 24 samples.

Results

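Module M[5] of the study holds transcripts of the mouse heart that the authors placed together for a shared course over time after a sham operation, and 116 of its transcripts are described here. They were taken by their UCSC transcript identifiers from the study's list of 1209 transcripts that changed over time, which gives M[5] 117 transcripts, 1 of which was left out by the rule that set the membership. The counts cover 63758 transcripts, of which 8940 had counts high enough to be tested. Among the 116 members, 100 passed that filter. The values at all 3 time points in all 24 mice were used by the authors to form the module. The members were thus chosen by their counts in these same samples, so the levels, fold changes and calls below describe the members and are no test of the module.

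The left ventricle of 24 male, young adult C57BL/6 mice (C57BL/6J in the study's methods) was sequenced, with 1 sample per mouse and 3 groups of 8 mice, taken at 0 min, at 45 min or at 24 h. Every mouse, the 0 min group included, was anaesthetised with pentobarbital, given buprenorphine and operated on by a left thoracotomy with a suture placed around the left anterior descending coronary artery but never tied. The suture was taken out at once in the 0 min group and after 45 min in both other groups, and the chest of the 24 h group was then closed and the mice kept until the next day. No group without anaesthesia and surgery was included, so that 0 min is the reference throughout and not an unoperated heart. A difference between 24 h and the earlier times therefore also covers chest closure, waking and recovery, which cannot be told apart from time. Total counts per sample ranged from 9887957 to 14091629, and 12972 to 18865 transcripts had at least 1 count. Replicates 6, 7 and 8 at 45 min had the fewest transcripts detected (13743, 14353 and 12972), and 1 transcript took 35.2% of the counts in replicate 1 at 45 min. Actc1, the cardiac actin of heart muscle cells, was at 12057 to 18914 CPM (counts relative to the TMM-scaled size of the library) at 0 min, as a check of the tissue, and at 3401 to 7810 CPM at 24 h.

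Injured or stressed tissue releases chemokines, small secreted proteins that draw leukocytes, while the endothelium of small veins exposes selectins on which leukocytes roll before they leave the blood. Neutrophils arrive first and bring granule proteases, monocytes follow, and tissue cells switch on genes against oxidants and metal ions, among them haem oxygenase and the metallothioneins. The members of M[5] include genes of each of these steps. By role, 19 were leukocyte genes, 14 belonged to the cytoskeleton, membranes, ubiquitin and trafficking, 13 to transcription, chromatin, translation and cell cycle, 13 to metabolism and transport, 11 were secreted signals, 10 belonged to stress, redox and cell survival, 10 to matrix and proteolysis, 9 were receptors or their signalling partners, 5 made or broke down lipid mediators and sterols, 4 were endothelial surface genes and 8 were not assigned to a role.

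Only a few members passed the threshold of the test at 45 min. By edgeR's quasi-likelihood test with a Benjamini-Hochberg adjusted p under 0.05 (termed called below), 6 of the 100 members were called higher at 45 min than at 0 min, beside 0.481% of all transcripts tested. They were Ccl2 and Ccl7, Selp, Hdc, Adora2b and Mt2. No member was called lower by edgeR or by DESeq2 (0 also at an unadjusted p under 0.05), beside 0.246% of all transcripts by edgeR. At 24 h, 81 of the 100 were called higher than at 0 min, beside 4.44% of all transcripts tested, and 0 lower, beside 3.24% (0 also by DESeq2 and at an unadjusted p under 0.05). All 6 early members were among these 81, and 0.224% of all transcripts were called higher at both times. A rise already at 45 min was thus called for 6 members, and for 75 members the call came at 24 h alone.

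The promoters of the early members are shown because theirs were the transcripts called at 45 min. RefSeq promoter entries (GRCm38.p6) were found for 84 of the 116 members, with 97 promoters in all, and for 4 of the 6 early members. Each line gives the 250 bases before the transcription start, 5′ to 3′ on the strand of the gene. Capitals mark matches, on either strand, to the AP-1 motif (TGANTCA), to the core of the antioxidant response element (ARE, TGANNNNGC), to the metal response element (MRE, TGCACNC or TGCGCNC) and to the NF-kB motif. The promoter of Cxcl2, a chemokine for neutrophils whose counts did not pass the filter, is added for its NF-kB match and was chosen after its values were seen.
Selp, chr1:164115014-164115263, plus strand: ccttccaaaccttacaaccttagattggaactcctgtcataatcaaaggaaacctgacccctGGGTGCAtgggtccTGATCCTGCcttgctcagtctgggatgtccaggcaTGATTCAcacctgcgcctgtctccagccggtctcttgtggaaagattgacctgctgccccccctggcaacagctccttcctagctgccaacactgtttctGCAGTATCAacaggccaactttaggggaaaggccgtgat
Mt2, chr8:94172368-94172617, plus strand: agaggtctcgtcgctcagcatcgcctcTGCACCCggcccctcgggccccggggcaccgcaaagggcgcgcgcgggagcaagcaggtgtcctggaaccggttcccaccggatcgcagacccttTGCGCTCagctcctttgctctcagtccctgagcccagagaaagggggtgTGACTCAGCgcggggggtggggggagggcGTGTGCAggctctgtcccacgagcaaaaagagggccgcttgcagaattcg
Hdc, chr2:126618679-126618928, minus strand: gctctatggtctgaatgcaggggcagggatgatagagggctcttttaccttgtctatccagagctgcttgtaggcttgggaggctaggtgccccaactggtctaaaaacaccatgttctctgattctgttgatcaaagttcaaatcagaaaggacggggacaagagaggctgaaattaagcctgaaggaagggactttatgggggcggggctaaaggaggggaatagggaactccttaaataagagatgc
Adora2b, chr11:62248734-62248983, plus strand: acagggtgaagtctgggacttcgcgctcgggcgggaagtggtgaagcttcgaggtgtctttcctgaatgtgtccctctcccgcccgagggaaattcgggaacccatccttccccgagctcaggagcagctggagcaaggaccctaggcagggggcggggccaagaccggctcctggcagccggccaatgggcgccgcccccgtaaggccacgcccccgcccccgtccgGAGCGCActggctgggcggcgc
Cxcl2, chr5:90903649-90903898, plus strand: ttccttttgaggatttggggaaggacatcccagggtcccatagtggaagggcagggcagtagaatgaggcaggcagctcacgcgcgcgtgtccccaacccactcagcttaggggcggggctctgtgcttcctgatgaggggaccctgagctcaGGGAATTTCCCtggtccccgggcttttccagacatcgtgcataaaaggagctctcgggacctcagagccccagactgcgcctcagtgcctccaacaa

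The Mt2 window held 3 MRE matches, on both strands, and an AP-1 match that lies inside an ARE match. In the Selp window there were 1 AP-1 match, 2 ARE matches and 1 MRE match, and the Adora2b window held 1 MRE match. No capitals appear in the Hdc window, which says only that these letters are not in these 250 bases. Over all 97 promoters of members, 16.5% held an NF-kB match, 13.4% an AP-1 match, 11.3% a STAT match (TTCNNNGAA), 38.1% an ARE match and 28.9% an MRE match. Over all 32851 promoters of the table, the shares were 7.25%, 6.75%, 7.02%, 35.2% and 21.4%. TATAAA, searched on the gene's strand, was in 10.3% of the members' promoters and in 7.59% of all. A cyclic AMP response element (TGACGTCA) and a CArG box were each in 1.03% of the members' promoters, beside 1.55% and 1.47% of all. These shares are descriptions of letters in a window and no evidence of binding.

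Ccl2 and Ccl7 encode chemokines for monocytes and lie beside each other on chromosome 11 (GRCm38, 82035571 to 82047525), with 8259 bases between them. Ccl2 was at 1.05 to 3.90 CPM at 0 min (median 1.79, n = 8), at 4.17 to 21.6 CPM at 45 min (median 10.3, n = 8) and at 2.51 to 54.9 CPM at 24 h (median 22.5, n = 8). Every mouse of the 45 min group was above every mouse of the 0 min group, and at 24 h 1 of 8 mice fell back into the range of 0 min. The log2 fold change of Ccl2 against 0 min was 2.26 ± 0.47 (SE) at 45 min and 3.71 ± 0.48 (SE) at 24 h. Ccl7 ranged from 0.638 to 3.82 CPM at 0 min (median 1.24), from 1.88 to 15.1 CPM at 45 min (median 6.13) and from 5.02 to 45.6 CPM at 24 h (median 16.7). For Ccl7 the groups at 0 and 45 min overlapped, with 6 of 8 mice at 45 min above the highest at 0 min, and the groups at 0 min and 24 h did not. Its log2 fold change was 2.15 ± 0.47 (SE) at 45 min and 3.85 ± 0.49 (SE) at 24 h. Both chemokines were also called higher at 24 h than at 45 min.

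Selp encodes P-selectin, which activated endothelium and platelets carry to their surface and on which leukocytes roll. It was at 0.183 to 0.978 CPM at 0 min (median 0.329), at 0.794 to 3.24 CPM at 45 min (median 1.9) and at 1.21 to 14.0 CPM at 24 h (median 7.11). At 45 min 7 of 8 mice were above the highest 0 min mouse, and at 24 h all 8 were. The log2 fold change was 2.27 ± 0.48 (SE) at 45 min and 4.05 ± 0.46 (SE) at 24 h. Mt2, a metallothionein that binds zinc and copper, was at 12.5 to 53.4 CPM at 0 min (median 18.2), 36.7 to 207 CPM at 45 min (median 60.2) and 76.0 to 401 CPM at 24 h (median 245). At 0 min 1 mouse, replicate 5, stood above the other mice, while all mice at 24 h were above it. Its log2 fold change was 2.08 ± 0.38 (SE) at 45 min and 3.50 ± 0.40 (SE) at 24 h. Reads of metallothionein genes can be shared between close copies, and Mt1, which belongs to another module, was at 0.366 to 1.82 CPM at 0 min and at 0.596 to 10.8 CPM at 45 min.

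The other early members had smaller changes. Hdc, the enzyme that makes histamine and is known from mast cells and other myeloid cells, ranged from 1.28 to 3.23 CPM at 0 min (median 2.39), from 3.49 to 6.88 CPM at 45 min (median 5.03) and from 2.83 to 7.86 CPM at 24 h (median 6.48). Its 0 and 45 min groups did not overlap, and the log2 fold change was 1.06 ± 0.21 (SE) at 45 min and 1.33 ± 0.21 (SE) at 24 h. Adora2b, an adenosine receptor that raises cyclic AMP, was at 0.549 to 2.02 CPM at 0 min (median 1.30), at 1.49 to 5.35 CPM at 45 min (median 2.83) and at 1.38 to 3.89 CPM at 24 h (median 2.68). At both later times 6 of 8 mice were above the highest 0 min mouse. It had a log2 fold change of 1.27 ± 0.30 (SE) at 45 min and of 1.02 ± 0.29 (SE) at 24 h, and was the sole member whose level at 24 h had a negative log2 difference from 45 min (−0.25 ± 0.28, SE), which was not called. Ccl2 and Hdc were the 2 members whose 45 min mice all lay above all 0 min mice, beside 0.235% of all transcripts tested.

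**Figure D1:**
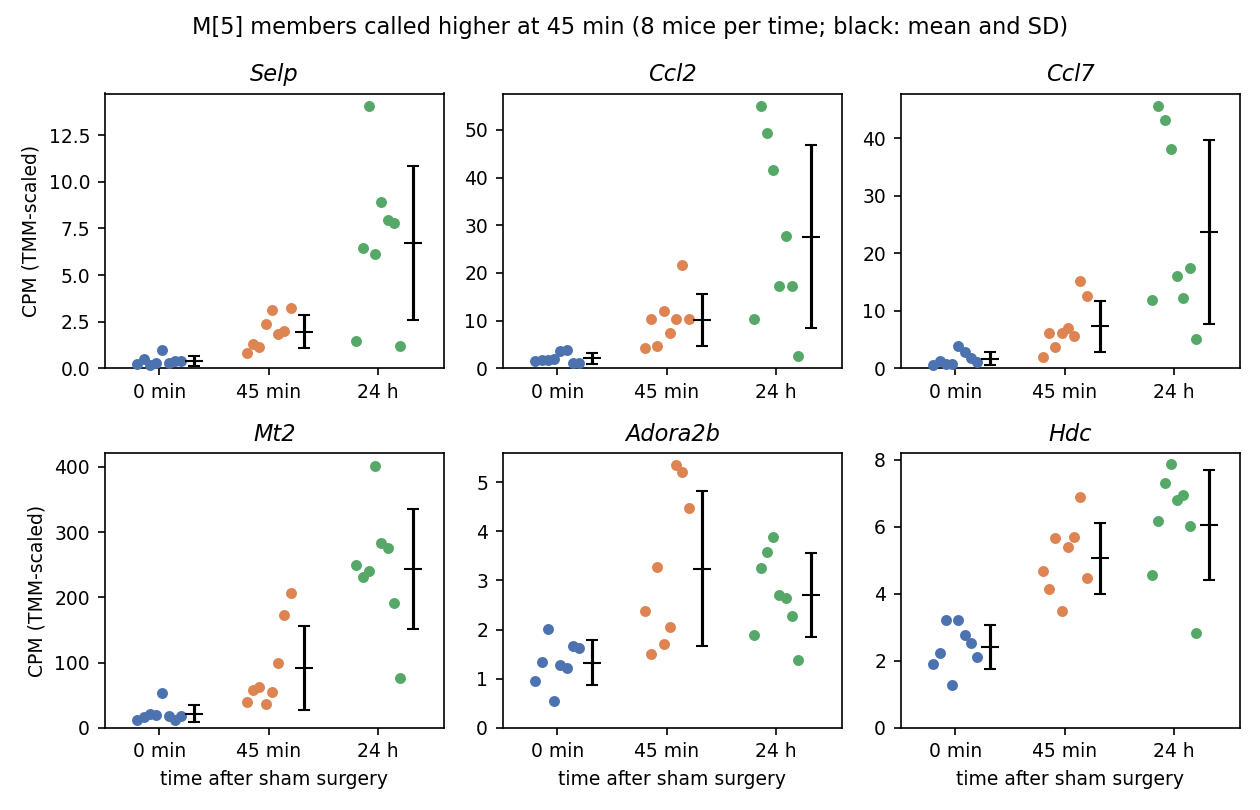
Level (CPM with TMM scaling, linear axes from 0) of the 6 members called higher at 45 min, by time after sham surgery, with 1 point per mouse (8 per time) and the mean and SD in black beside the points. The 45 min and 0 min points of Ccl2 and Hdc do not overlap, those of the other 4 genes do, and Adora2b alone is no higher at 24 h (median 2.68 CPM) than at 45 min (median 2.83 CPM).

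The early calls rested on some mice more than on others. The 3 mice of the 45 min group with the fewest transcripts detected, replicates 6, 7 and 8, also had the highest mean standardized level of the 6 early members in that group (0.513, 0.909 and 0.673 SD units, against −0.331 to 0.154 in replicates 1 to 5). Mt2 averaged 50.3 CPM in replicates 1 to 5 and 159 CPM in replicates 6 to 8, with 21.6 CPM at 0 min. The means of Ccl2 in the same order were 7.75, 14.07 and 2.095 CPM, those of Ccl7 4.99, 11.1 and 1.64 CPM, and those of Adora2b 2.18, 5.01 and 1.33 CPM. Selp averaged 1.74, 2.35 and 0.401 CPM and Hdc 4.67, 5.68 and 2.41 CPM.

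When replicates 6, 7 and 8 at 45 min were left out, an alternative chosen after seeing the data, edgeR called 0 members at 45 min, with 19 higher at an unadjusted p under 0.05. The log2 fold changes of the 6 early members at 45 min were then 2.097 for Selp, 1.86 for Ccl2, 1.59 for Ccl7, 1.19 for Mt2, 0.94 for Hdc and 0.70 for Adora2b, all still positive, and 28 of all 9516 transcripts tested in that fit were called higher. That fit had 5 mice at 45 min in place of 8. When the fit of all 24 mice was adjusted for how many transcripts each had detected, also chosen after seeing the data, 7 members were called, the 6 early ones and Ptgs2. The part of the number of transcripts detected in the early calls was not tested further. With 1 mouse left out at a time, Selp, Ccl2, Hdc and Mt2 kept the call in all 24 fits, but in a fit of the 0 min and 45 min mice alone 4 members were called and Selp and Adora2b were not. Ccl7 kept it in 16, and lost it without 0 min replicate 1, 2, 3, 4, 7 or 8 or 45 min replicate 7 or 8, with log2 fold changes of 1.92 to 2.48 over the 24 fits. Adora2b kept it in 9, with 1.15 to 1.40, and lost it without any 0 min mouse but replicate 3, without 45 min replicate 3, 6, 7 or 8 and without 24 h replicate 2, 5, 6 or 7.

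**Figure D2:**
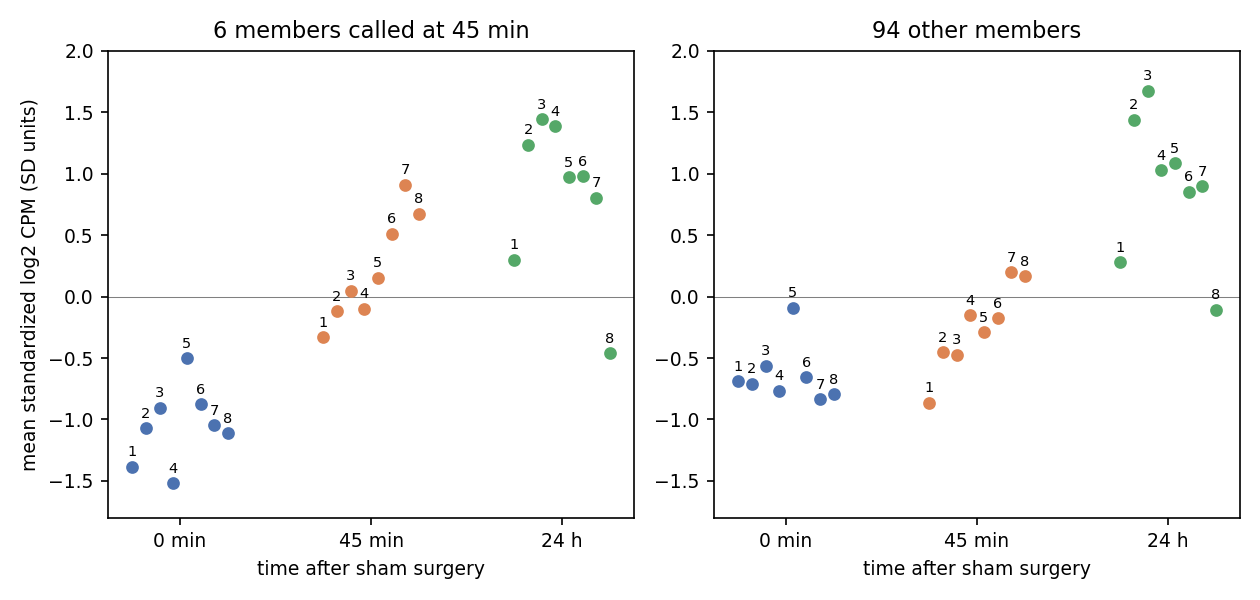
Mean standardized log2 CPM (SD units over the 24 mice) of the 6 members called at 45 min (left) and of the 94 other members that passed the filter (right), by time after sham surgery, with 1 point per mouse labelled by its replicate number. Replicates 6, 7 and 8 are highest on the left at 45 min, replicate 5 is highest at 0 min on both sides (−0.503 and −0.0896), and replicate 8 is lowest at 24 h on both (−0.461 and −0.108).

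Below the threshold, the members as a whole were slightly higher at 45 min. Of the 100, 81 had a positive log2 fold change against 0 min, with a median of 0.23 and a range of −0.30 to 2.73, beside 51.7% positive and a median of 0.01 over all transcripts tested. At an unadjusted p under 0.05, 31 members were higher, beside 2.94% of all transcripts tested. Fewer were so without the 3 mice at 45 min that had the fewest transcripts detected. In that fit, 68 of 110 members had a positive log2 fold change at 45 min, and 19 were higher at an unadjusted p under 0.05. That fit kept 5 mice at 45 min, and its 110 members are not the same set as the 100. At 24 h all 100 members had a positive log2 fold change, with a median of 0.94 and a range of 0.20 to 4.15, beside 50.4% and a median of 0.00 over all. Among the 81 members called at 24 h, the log2 change at 45 min was 35.7% of that at 24 h in the median, with quartiles of 18.7% and 52.0%. It was at least 50% in 21 members, under 25% in 33 and negative in 8. The 8 were Fstl3, Cyp7b1, Npl, Medag, Tmem45a, Serpinb1a, Ngfr and Clec14a, all of them called higher at 24 h. Since both changes share the 0 min mice, these shares carry that group's error on both sides.

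**Figure D3:**
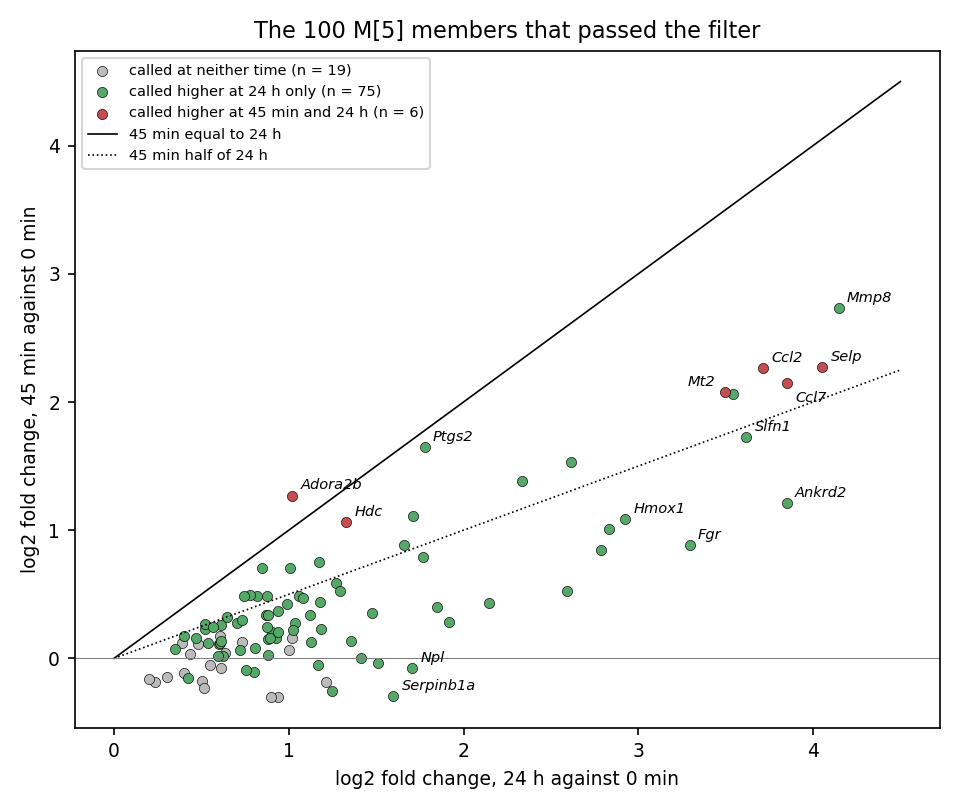
Log2 fold change at 45 min against 0 min (vertical) and at 24 h against 0 min (horizontal) of the 100 members that passed the filter, coloured by whether each was called at both times (6), at 24 h only (75) or at neither (19). The solid line marks equal changes and the dotted line a change at 45 min of 50% of that at 24 h. Adora2b is the one point above the solid line, and most points lie below the dotted one.

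Several members that were not called at 45 min had positive log2 fold changes there. For Ptgs2 and Litaf these changes were near those at 24 h. Ptgs2, the inducible cyclooxygenase that starts prostaglandin synthesis, was at 0.457 to 1.99 CPM at 0 min (median 1.42), 1.48 to 7.92 CPM at 45 min (median 3.49) and 1.54 to 10.2 CPM at 24 h (median 3.22). At 45 min 6 of 8 mice were above the highest 0 min mouse. The log2 fold change was 1.65 ± 0.41 (SE) at 45 min, which was not called, and 1.78 ± 0.41 (SE) at 24 h, which was. DESeq2 called 10 members at 45 min, adding Ptgs2, Litaf, Ch25h and A730017L22Rik to the 6. Litaf, a regulator of lysosomal trafficking, had a log2 fold change of 0.71 ± 0.19 (SE) at 45 min and of 0.85 ± 0.19 (SE) at 24 h. For Ch25h, the enzyme that makes an oxysterol from cholesterol, it was 1.53 ± 0.45 (SE) and 2.61 ± 0.44 (SE). The largest log2 fold change of any member at 45 min was that of Mmp8 (2.73 ± 0.84, SE), which was not called and came with a range of 0.0992 to 5.31 CPM. Without 45 min replicate 7 it was 1.71, below the values of Selp, Ccl2, Ccl7 and Mt2.

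Secreted signals had the highest median log2 fold change at 24 h of the 11 groups, 1.51. Of 11 members, 7 passed the filter, 2 were called at 45 min and 6 at 24 h. Chil1, a secreted chitinase-like protein, was at 0 to 0.434 CPM at 0 min (median 0.0415), 0 to 1.46 CPM at 45 min (median 0.395) and 0.652 to 1.85 CPM at 24 h (median 1.57). All mice at 24 h were above all at 0 min, and the log2 fold change was 3.54 ± 0.62 (SE), from 0 to 5 counts per mouse at 0 min. Grn, progranulin, was at 105 to 171 CPM at 0 min and at 117 to 272 CPM at 24 h, with overlapping groups and a log2 fold change of 0.61 ± 0.15 (SE). Ctgf, a matrix-associated growth factor of connective tissue, ranged from 56.8 to 152 CPM at 0 min, from 60.7 to 242 CPM at 45 min and from 107 to 321 CPM at 24 h, with a log2 fold change of 0.88 ± 0.26 (SE) at 24 h. The call of Ctgf held in 8 of the 24 fits that left out 1 mouse, with log2 fold changes of 0.67 to 1.01.

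Low counts kept 4 secreted signals under the filter. Cxcl2 had at most 2 counts in any 0 min mouse, 1 to 8 counts at 45 min and 1 to 27 counts at 24 h. With a floor of 3 counts per library set for 0 min, its observed mean CPM was 1.47 times the floor at 45 min. At 24 h it was 2.02 times the floor. The spread between mice at 45 min and 24 h does not enter these ratios. Cxcl2 was not called at 45 min by DESeq2 or by edgeR without a filter. Il1f9, an interleukin of the interleukin 1 family, had a mean CPM at 24 h of 4.22 times this floor, and Gdf3, a growth factor of the TGF-beta family, of 2.28 times. Wnt4, a Wnt ligand, had 1 to 9 counts at 0 min and 5 to 43 counts at 24 h. DESeq2, and edgeR without a filter, called all 4 higher at 24 h than at 0 min.

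Among receptors and their partners, 8 of 9 members passed, 1 was called at 45 min and 6 at 24 h. Ccr1, a chemokine receptor of monocytes and neutrophils, was at 0.459 to 1.5 CPM at 0 min (median 0.989), 0.397 to 4.09 CPM at 45 min (median 1.64) and 2.19 to 12.3 CPM at 24 h (median 6.46). The groups at 0 and 45 min overlapped, those at 0 min and 24 h did not, and the log2 fold change at 24 h was 2.78 ± 0.44 (SE). Cnksr1, a scaffold of receptor signalling, was at 6.05 to 18.9 CPM at 0 min and 8.58 to 34.2 CPM at 24 h, with a log2 fold change of 0.99 ± 0.25 (SE). Erbb2, a receptor tyrosine kinase that heart muscle cells need, was at 13.6 to 24.3 CPM at 0 min, 11.6 to 18 CPM at 45 min and 12.9 to 25.9 CPM at 24 h, and was not called at any time.

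All 4 endothelial surface genes were called at 24 h, with a median log2 fold change of 0.70, and Selp alone at 45 min. Thbd, thrombomodulin, which turns thrombin towards anticoagulation, was at 66.9 to 104 CPM at 0 min (median 74.6), 72.9 to 120.0 CPM at 45 min (median 92.9) and 102 to 148 CPM at 24 h (median 121). At 24 h 7 of 8 mice were above the highest 0 min mouse, and the log2 fold change was 0.62 ± 0.12 (SE). Lyve1, a hyaluronan receptor of lymphatic endothelium and of some tissue macrophages, was at 17.9 to 27.3 CPM at 0 min, 20.6 to 46.9 CPM at 45 min and 26.5 to 53.0 CPM at 24 h, with log2 fold changes of 0.49 ± 0.16 (SE) at 45 min, which was not called, and 0.78 ± 0.16 (SE) at 24 h. Clec14a, an endothelial lectin, was the sole member whose 24 h mice (29.3 to 38.0 CPM) all lay above the 45 min mice (16.8 to 26.6 CPM). That is 1.0% of the members that passed, near the 0.682% of all transcripts tested. The log2 fold change of Clec14a against 0 min was −0.15 ± 0.12 (SE) at 45 min and 0.42 ± 0.12 (SE) at 24 h. Its call at 24 h held in 7 of the 24 fits that left out 1 mouse.

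Leukocyte genes were the largest group, and 16 of the 17 that passed were called at 24 h, with Hdc alone called at 45 min. Their median log2 fold change was 0.34 at 45 min and 1.21 at 24 h. Srgn, the proteoglycan of leukocyte granules, was at 23.2 to 54.2 CPM at 0 min (median 43.9), 28.5 to 59.7 CPM at 45 min (median 43.5) and 36.1 to 85.8 CPM at 24 h (median 68.3), with a log2 fold change of 0.72 ± 0.19 (SE) at 24 h. Hcls1, an actin regulator of blood cells, was at 8.59 to 13.9 CPM at 0 min and 7.53 to 36.2 CPM at 24 h, with a log2 fold change of 0.87 ± 0.24 (SE). Cd177, a surface protein of neutrophils, ranged from 0 to 1.08 CPM at 0 min, from 0 to 1.15 CPM at 45 min and from 0.217 to 2.42 CPM at 24 h, with a log2 fold change of 2.59 ± 0.72 (SE) at 24 h. The calls of Srgn, Hcls1 and Cd177 at 24 h held in 16, 19 and 15 of the 24 fits that left out 1 mouse.

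In whole tissue, more cells of a type and more RNA per cell cannot be told apart. The summed level of the 5 neutrophil markers matched by symbol, 4 of which are members, was 1.36 to 7.63 CPM at 0 min, 1.79 to 21.5 CPM at 45 min and 7.89 to 53.4 CPM at 24 h. Monocyte and macrophage markers (11 transcripts, with Ly6c2 as the 1 member) summed to 19.5 to 42.4 CPM at 0 min, 25.6 to 48.7 CPM at 45 min and 43.5 to 238 CPM at 24 h, and all 10 that passed the filter were called higher at 24 h. At 45 min edgeR called 0 of them (2 at an unadjusted p under 0.05) and DESeq2 called 1. Of the 2 fibroblast transcripts matched, 1 was called higher at 24 h. Symbols were known only for the study's 1209 transcripts, so that 10 of 15 neutrophil markers, 4 of 14 monocyte and macrophage markers and the whole endothelial and erythrocyte lists were not looked up here. The markers matched had thus been listed by the study as changing over time in these same samples. Their calls are descriptions, beside 4.44% of all transcripts tested that were called higher at 24 h. The part of cell numbers in the members' levels was not tested.

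Matrix and protease members were called at 24 h and not at 45 min. All 7 that passed were called at 24 h. At 45 min edgeR called 0 (5 at an unadjusted p under 0.05) and DESeq2 called 0. The median log2 fold change of the group at 45 min, 0.49, was still the highest of the 11 groups. Mmp9, a gelatinase of neutrophils and macrophages, was at 1.20 to 4.79 CPM at 0 min (median 2.03), 0.794 to 11.6 CPM at 45 min (median 4.07) and 5.26 to 39.3 CPM at 24 h (median 13.5). The groups at 0 min and 24 h did not overlap, and the log2 fold change was 2.83 ± 0.45 (SE) at 24 h and 1.01 ± 0.45 (SE) at 45 min. Mmp8, a neutrophil collagenase, had the largest change of all members at 24 h, with a log2 fold change of 4.15 ± 0.79 (SE) from a median of 0.0894 CPM at 0 min to one of 3.06 CPM. Ctsl, a lysosomal protease, was abundant and even, at 131 to 178 CPM at 0 min, 148 to 259 CPM at 45 min and 240.4 to 282 CPM at 24 h, with no overlap between 0 min and 24 h and a log2 fold change of 0.71 ± 0.11 (SE). Tnfaip6, which binds hyaluronan in inflamed matrix, was at 0.239 to 1.76 CPM at 0 min, 0.794 to 2.71 CPM at 45 min and 1.56 to 4.68 CPM at 24 h. Its log2 fold change was 1.11 ± 0.33 (SE) at 45 min, which was not called, and 1.71 ± 0.32 (SE) at 24 h. Ndst2, which sulfates heparan and heparin chains, had a log2 fold change of 0.47 ± 0.12 (SE) at 24 h.

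Of the members for stress, redox and survival, 9 of 10 were called at 24 h and Mt2 alone at 45 min. Hmox1, haem oxygenase, which breaks down haem, was at 8.62 to 20 CPM at 0 min (median 11), 11.7 to 41.2 CPM at 45 min (median 24.7) and 19.7 to 198 CPM at 24 h (median 82.2). At 45 min 5 of 8 mice and at 24 h 7 of 8 mice were above the highest 0 min mouse. The log2 fold change of Hmox1 was 1.09 ± 0.32 (SE) at 45 min, which was not called, and 2.93 ± 0.34 (SE) at 24 h. Mgst1, a membrane-bound glutathione transferase, was at 27.5 to 68.4 CPM at 0 min, 34.8 to 92.1 CPM at 45 min and 86.0 to 165 CPM at 24 h, without overlap between 0 min and 24 h, and its log2 fold change at 24 h was 1.48 ± 0.21 (SE). Srxn1, sulfiredoxin, which restores peroxiredoxins, was at 22 to 36.8 CPM at 0 min and at 42.2 to 73.8 CPM at 24 h, with a log2 fold change of 0.88 ± 0.16 (SE). From a wider list of NRF2-linked and metallothionein genes, 9 of 19 symbols were matched, all among the transcripts the study listed as changing over time. Of these, 8 transcripts passed the filter, 4 of them members, and 7 were called higher at 24 h and 1 (Mt2) at 45 min. These calls are descriptions, beside 4.44% and 0.481% of all transcripts tested.

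The lipid mediator group held 5 members. Anxa1, a protein that limits inflammation and phospholipase activity, was at 15.9 to 23.4 CPM at 0 min, 14.6 to 31.2 CPM at 45 min and 26 to 46.5 CPM at 24 h. All mice at 24 h were above all at 0 min, and the log2 fold change was 0.93 ± 0.17 (SE). Tbxas1, thromboxane synthase, was at 0.734 to 2.01 CPM at 0 min and 1.21 to 4.37 CPM at 24 h, with a log2 fold change of 0.73 ± 0.25 (SE) that was not called. Of the 5, 4 were called at 24 h, all but Tbxas1. At 45 min edgeR called 0 (2 at an unadjusted p under 0.05) and DESeq2 called 2, Ptgs2 and Ch25h.

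**Figure D4:**
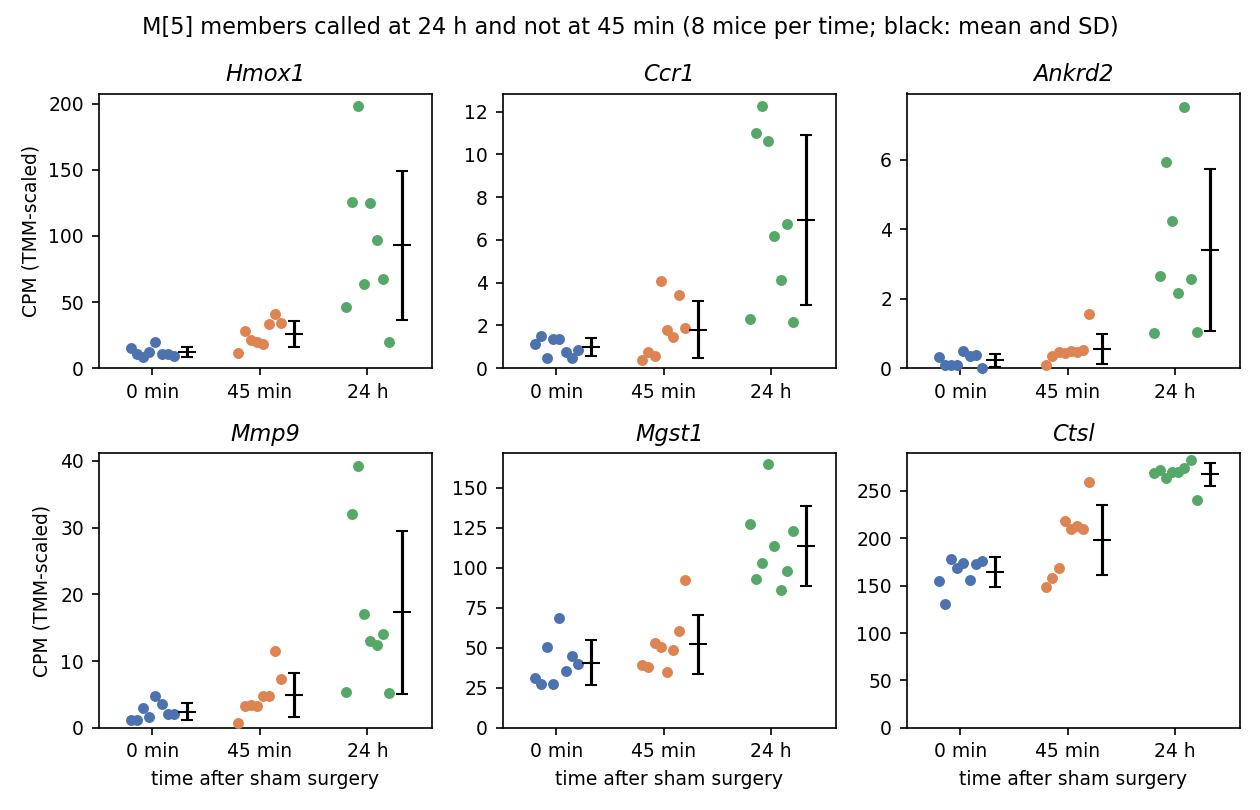
Level (CPM with TMM scaling, linear axes from 0) of 6 members called at 24 h and not at 45 min, by time after sham surgery, with 1 point per mouse (8 per time) and the mean and SD in black. Except for Hmox1, for which 1 mouse at 24 h lies at 19.7 CPM within the 0 min range, the 24 h and 0 min points do not overlap.

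Of the transcription, chromatin, translation and cell cycle members, 10 of 12 were called at 24 h, with a median log2 fold change of 0.62. Ankrd2, a muscle ankyrin repeat protein that responds to stretch, had the largest log2 fold change of this group, at 0 to 0.489 CPM at 0 min (median 0.205), 0.0992 to 1.57 CPM at 45 min (median 0.467) and 1.01 to 7.53 CPM at 24 h (median 2.61). Its groups at 0 min and 24 h did not overlap, and the log2 fold change at 24 h was 3.85 ± 0.52 (SE), from 0 to 5 counts per mouse at 0 min. Eif3b, a translation initiation factor, was at 135 to 159 CPM at 0 min and 159 to 222 CPM at 24 h, with a log2 fold change of 0.35 ± 0.09 (SE). Limd1, a LIM domain scaffold, was at 51.1 to 62.4 CPM at 0 min and 68.4 to 108 CPM at 24 h, with a log2 fold change of 0.61 ± 0.10 (SE) and no overlap. The transcript listed for Rpl3, a ribosomal protein, was at 0.585 to 1.82 CPM at 0 min and 2.1 to 3.44 CPM at 24 h, with a log2 fold change of 1.00 ± 0.24 (SE). It is 1 transcript of the gene and not the gene's sum, and reads of Rpl3 and Actb can be shared with processed copies elsewhere in the genome.

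Cytoskeletal, membrane, ubiquitin and trafficking members were called at 24 h in 9 of 13 cases. Actb, cytoplasmic actin, was at 586 to 831 CPM at 0 min and 485 to 1528 CPM at 24 h and was not called (log2 fold change 0.40 ± 0.20, SE), nor was Usp20, a deubiquitinase, at 0.20 ± 0.11 (SE) against 0 min. Cldn15, a claudin of cell junctions, was at 5.58 to 10.7 CPM at 0 min and 11.5 to 24.2 CPM at 24 h, with a log2 fold change of 1.04 ± 0.23 (SE) and no overlap. Metabolic and transport members were called at 24 h in 5 of 11 cases. Gfpt2, which feeds glucose into the hexosamine pathway, was at 13 to 53.7 CPM at 0 min and 31.6 to 91.4 CPM at 24 h and rose with a log2 fold change of 1.03 ± 0.24 (SE), while Fasn, fatty acid synthase, had 0.43 ± 0.15 (SE) and was not called. Of the members without a role here, A730017L22Rik was at 34.9 to 42.9 CPM at 0 min, 42.3 to 51.5 CPM at 45 min and 50.6 to 64.0 CPM at 24 h, with a log2 fold change of 0.52 ± 0.09 (SE) at 24 h, and AK217854 had one of 0.60 ± 0.16 (SE).

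**Figure D5:**
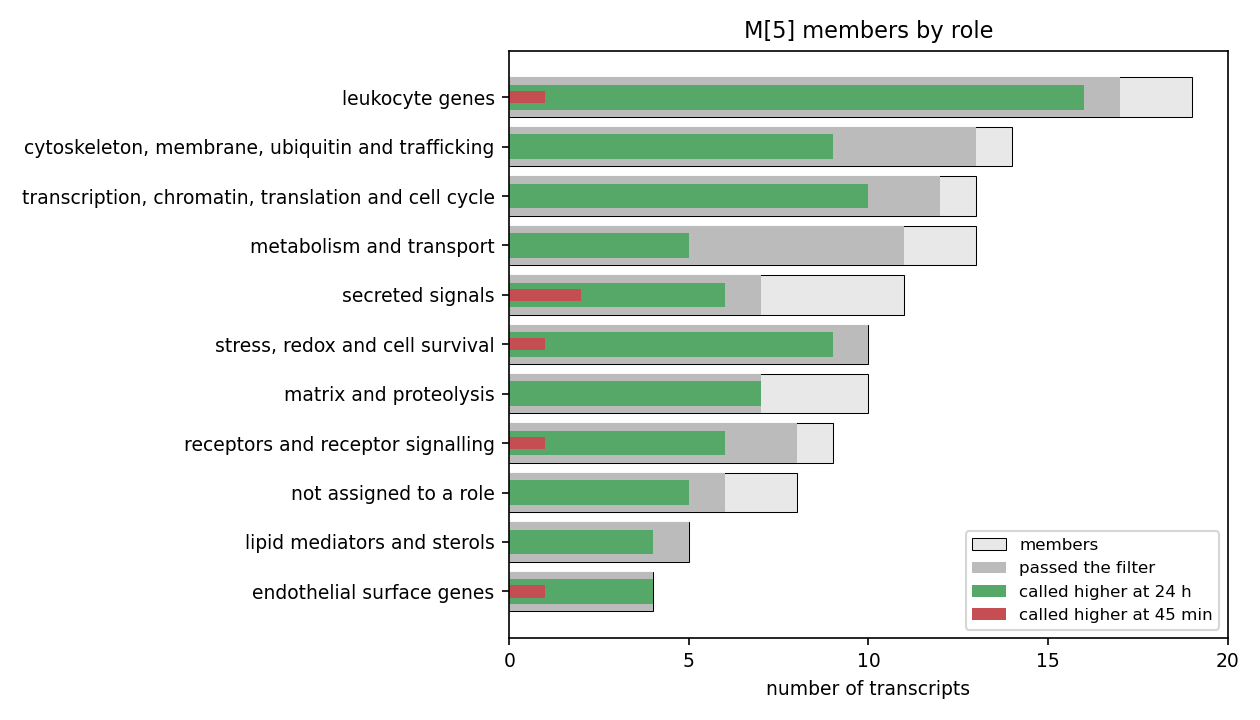
Number of M[5] members by role (horizontal axis, transcripts), with bars for all members, those that passed the filter on low counts, those called higher at 24 h and those called higher at 45 min against 0 min. The 6 early calls fall in 5 groups, with 2 among secreted signals.

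Between 45 min and 24 h, 50 of the 100 members were called higher, beside 4.59% of all transcripts tested, and 0 lower, beside 4.51% (0 also by DESeq2 and at an unadjusted p under 0.05). Of the 81 called at 24 h against 0 min, 45 were also called against 45 min and 36 were not. Of the 19 members called at neither time against 0 min, 5 were called higher at 24 h than at 45 min (Usp20, Pdia5, Ptprj, Tmem158 and AK172204), and 14 members were called in no comparison. The count of 50 depended on single mice. It was 22 without 24 h replicate 2, 25 without 24 h replicate 3, 26 without 24 h replicate 5, 29 without 24 h replicate 6, 24 h replicate 7 or 45 min replicate 1, 30 without 45 min replicate 2 or 3, 31 without 45 min replicate 5 and 33 without 0 min replicate 6. In 21 members, 19 of them among the 100 that passed, beside 0.996% of all transcripts tested, every 24 h mouse lay above every 0 min mouse, and Selp, Ccl7 and Mt2 of the early members were among them.

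Of the 81 members called at 24 h against 0 min, 55 kept the call in all 24 fits that left out 1 mouse and 26 did not. The call held in fewer than 12 of the 24 fits for 8 of these, among them Mpp1 (2 fits), Clec14a (7), Nrm (7), Tmem45a (7), 2200002D01Rik (8), Ctgf (8) and Fam46b (8). It held in 13 fits for Adora2b, Ngfr and Npm1, in 15 for Cd177, Eif3b and Ly6c2, in 16 for Srgn, in 18 for Cyp7b1 and Rab15, in 19 for Hcls1, in 20 for Grn, Mxd1 and Ndst2, in 21 for AK217854, Glipr2 and Themis2, and in 22 for Cd300ld and Cnksr1. Leaving out 24 h replicate 3 ended all 26 of these calls, 24 h replicate 2 ended 25, 24 h replicate 5 ended 22, 24 h replicate 7 ended 17 and 24 h replicate 6 ended 15, while any other mouse ended at most 14. The median coefficient of variation between the mice of a group, over the members, was 30.2% at 0 min. It was 29.7% at 45 min and 32.2% at 24 h. Eif3b at 0 min, Usp20 at 45 min and Ctsl at 24 h had the smallest (6.22%, 4.57% and 4.56%). The members together took 0.211% to 0.241% of all counts at 0 min, 0.137% to 0.280% at 45 min and 0.291% to 0.613% at 24 h.

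Members followed the module's mean profile to different degrees. Over the 24 mice, the correlation of a member's standardized log2 CPM with the mean of the other members had a median of 0.766, from 0.529 for Wnt4, 0.557 for Erbb2 and 0.568 for Adora2b to 0.937 for Selp, 0.958 for Mmp9 and 0.968 for Hmox1. Outside the module, Ccl6, Efhd2 and Ctsz had the highest values (0.966, 0.966 and 0.947), and all 3 are listed in M[6]. These correlations share the libraries and their depth and are descriptions. Side by side, M[1] had 21 of its 27 transcripts that passed called at 45 min and 4 at 24 h, with median log2 fold changes of 1.39 and 0.28. For M[6], edgeR called 0 of 56 at 45 min (5 at an unadjusted p under 0.05, and 0 by DESeq2) and 47 at 24 h, with medians of 0.23 and 1.15, and for M[7], 1 of 103 and 99 (medians 0.14 and 1.36). M[5], with 6 and 81 of 100, lay between M[1] and the later modules in its share of calls at both times. At 24 h its share, 81.0%, was near the 83.9% of M[6], beside 14.8% for M[1] and 96.1% for M[7]. Its median log2 fold change at 45 min, 0.23, was near that of M[6]. The differences between modules were not tested because the modules were formed from these profiles.

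Wider lists place the early members beside genes of the same kinds that the study had also listed as changing over time. Looked up were 17 of 38 chemokine and receptor symbols, 7 of 18 matrix metalloproteinase and inhibitor symbols and 5 of 17 prostanoid and eicosanoid symbols. Their calls are thus descriptions. Of all transcripts tested, 0.481% were called higher at 45 min, 4.44% higher at 24 h and 3.24% lower at 24 h. Of 13 chemokine and chemokine receptor transcripts that passed the filter, 3 were called at 45 min (Ccl2, Ccl7 and Cxcl1) and 11 higher at 24 h, and 1 was called lower at 24 h. Cxcl1, a neutrophil chemokine of M[1], was at 1.01 to 2.97 CPM at 0 min, 13.2 to 44.1 CPM at 45 min and 2.19 to 11.3 CPM at 24 h, higher at 45 min than later, while the medians of Ccl2 and Ccl7 were higher at 24 h. Of 6 matrix metalloproteinase and inhibitor transcripts that passed, 1 was called at 45 min (Timp4, which is no member), 4 higher at 24 h and 1 lower. Of 3 prostanoid and eicosanoid enzymes that passed, 2 were called higher at 24 h.

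The 16 members that did not pass the filter included Lilr4b, AK040737, AK076984, Fam111a, Gldc, Il1f9, Mmp24, Wnt4, Cxcl2, Hcar2, Asprv1, Gdf3, Klk9, Napsa and Tspan4. None had a median above 5.5 counts at 0 min or at 45 min, and their medians at 24 h ranged from 5.0 to 24.0 counts. AK040737 and Il1f9 were the 2 of them whose 24 h mice all lay above every 0 min mouse. When these 16 were fitted without a filter, edgeR called 13 of them higher at 24 h than at 0 min, and DESeq2 called 14. At 45 min edgeR without a filter called 0 of the 16, with 6 at an unadjusted p under 0.05, and DESeq2 called 0 of the 12 to which it gave an adjusted p, with 7 of the 16 at an unadjusted p under 0.05.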

How the data were processed

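Polyadenylated RNA of the left ventricle was sequenced in 24 samples, 1 per mouse, with 8 mice per time point. The authors deposited raw counts per UCSC transcript (mm10), made after trimming with cutadapt 1.9.1, mapping with TopHat2 2.1.0 and Bowtie2 2.2.9 and counting with HTSeq 0.6.0, as listed in the submitters' processing notes. The counting mode, its strand setting and the annotation release are not given in the sources used here, so that reads of overlapping transcripts, close gene copies (Mt2, H2-Q10, Ly6c2, Slfn1, Lilr4b) or antisense genes may be split or lost. A value belongs to 1 transcript and not to the gene. Levels in CPM are not per length and are compared only within a transcript.

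The tests were run with edgeR 4.0.16 under R 4.3.3: filterByExpr (at least 10 counts in enough samples and 15 in total), TMM scaling, and a quasi-likelihood fit (glmQLFit, glmQLFTest) with time as the factor over all 24 samples, Benjamini-Hochberg adjusted over 8940 transcripts at a threshold of 0.05. Standardized levels used log2(CPM + 0.5). The alternatives were RLE and upper-quartile scaling, no filter, a stricter filter (1 CPM in 8 samples), DESeq2 1.42.0, the 2 time points of a comparison alone, the replicate number as a block, a threshold of 0.01, and each mouse left out. 2 more were added after seeing the data, a covariate for how many transcripts a sample had detected and a fit without replicates 6, 7 and 8 at 45 min.

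Replicates are separate mice per the study's methods. In all 84 pairs of samples of a time point the counts differed beyond sampling noise (chi-square per degree of freedom at least 10.9). Neither surgeon nor sequencing pool is in the labels used, and neither entered a fit. The members, the gene lists and the tests were chosen with earlier results of these data known. Named members are those called at 45 min, the 10 largest changes at 24 h without overlap, the 2 highest mean CPM of each role, 18 genes known from inflammation and wound repair, the 3 lowest correlations with the module's mean and the members that did not pass the filter. Some members are not reported here by name. Litaf, Ch25h, Clec14a and the members listed by name under a count were named after their values were seen. Symbols were known for the study's 1209 listed transcripts, and gene positions are those of GENCODE M21 on GRCm38, found for 110 members. Promoters are from RefSeq (GRCm38.p6). The total counts of 9887957 to 14091629 per sample set the precision, and floors of 3 counts cover counting error only.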

Additional observations from a re-analysis of the deposited data

Results flagged for a closer look

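In groups of 8 mice, a value was set apart where the distance of the highest or lowest mouse to the next, divided by the group's range, passed Dixon's 95% limit. For genes the distances and ranges were taken on log2(CPM + 0.5), while the levels printed below are in CPM. For the mean standardized level they were taken in SD units. This held for 11 of the 126 groups examined, and chance alone marks about 1 group in 20 (5.0%), so that several of these can be chance. At 0 min, replicate 5 was the high mouse for Mt2 (53.4 CPM, next 21.5), Mmp8 (0.783 CPM, next 0.195), Cd177 (1.08 CPM, next 0.293) and the mean standardized level of the members (−0.114, next −0.584). At 45 min, replicate 7 was high for Mmp8 (5.31 CPM, next 0.937), replicate 8 was high for Ankrd2 (1.57 CPM, next 0.521) and replicate 1 was low for Gfpt2 (16.6 CPM, next 30.8). At 24 h, replicate 8 was low for Mt2 (76.0 CPM, next 191) and for Ctsl (240.4 CPM, next 263), and replicate 1 was low for Srgn (36.1 CPM, next 57.1). Ctsl was also low in replicate 2 at 0 min (131 CPM, next 155). None of these mice was left out of the comparisons.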

How the results depend on the processing

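The count of members higher at 24 h than at 0 min (81) stayed within 1.5 times under every alternative run, at 54 (threshold of 0.01) to 102 (DESeq2), and with 1 mouse left out it ranged from 56 to 84. The median log2 fold change of the members at 24 h ranged from 0.83 to 1.02 and at 45 min from 0.19 to 0.32 with 1 mouse left out. Without replicates 6, 7 and 8 at 45 min, 68 of the 110 members in that fit had a positive log2 fold change at 45 min. The count at 45 min (6) ranged from 4 to 7 with 1 mouse left out, was 10 with DESeq2, 2 (Hdc and Mt2) at a threshold of 0.01, and 0 without replicates 6, 7 and 8 at 45 min. The count of members higher at 24 h than at 45 min (50) was 30 without a filter, 28 on those time points alone and 16 at a threshold of 0.01, and ranged from 22 to 51 with 1 mouse left out. The sign of single changes was followed only for the named members set out above that passed the filter, and only against 0 min. None of their called changes turned its sign. Among the changes of these named members at 45 min that were not called, some turned negative without replicates 6, 7 and 8 at 45 min. The log2 fold change was then negative for Cd177 (−0.947), Ctgf (−0.219), Anxa1 (−0.180), Cldn15 (−0.144), Srgn (−0.126), Srxn1 (−0.0344), Tbxas1 (−0.0276) and Eif3b (−0.0212). Other members also turned negative in that fit and are not listed here. With 1 mouse left out it ranged over 0 for Srgn (−0.0160 without 45 min replicate 7 to 0.148, and −0.00990 without 0 min replicate 2), Cd177 (−0.0183 without 45 min replicate 7 to 1.49) and Fasn (−0.0115 without 0 min replicate 8 to 0.121). With the replicate number as a block, the counts were 4 at 45 min (without Adora2b and Ccl7), 73 at 24 h and 41 for 24 h against 45 min, and Eif3b lost its call at 24 h. The numbers do not pair the mice: in the 24 same-number pairs the deviations from the group means correlated from −0.541 to 0.583 (median 0.12), with 13 pairs above 0.1, so the block says nothing of a paired effect. Depth limits the 16 members under the filter.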
